A study of Mus musculus with 24 samples.

Results

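The Cyp3a family encodes cytochrome P450 enzymes of the endoplasmic reticulum, and 7 of its genes were followed here through the hepatocyte transcriptome of 24 mice. The members were Cyp3a11, Cyp3a13, Cyp3a16, Cyp3a25, Cyp3a41a, Cyp3a44 and Cyp3a59. They were taken by gene symbol from a count table of 55421 genes, by a rule that used no measured value, although the family was picked with earlier results of these data known. Of the 7 members, 4 had enough counts to be tested (Cyp3a11, Cyp3a25, Cyp3a59 and Cyp3a13) and 3 stayed below the count minimum (Cyp3a16, Cyp3a41a and Cyp3a44).

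Cyp3a enzymes oxidize steroids, bile acids and a large share of drugs, using electrons that P450 oxidoreductase draws from NADPH. In the liver, Cyp3a11 is the main inducible member of the adult mouse and is usually set beside human CYP3A4. Its transcription is known to be driven by the nuclear receptors PXR (Nr1i2) and CAR (Nr1i3), which pair with RXR and bind repeated hexamer half-sites, and by liver factors such as HNF4A. Cyp3a16, Cyp3a41a and Cyp3a44 are known as copies of the fetal or the adult female liver.

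Hepatocytes were isolated from male mice by collagenase perfusion and purified on Percoll, and their polyA RNA was sequenced. Each age was split by diet into ND and HFD, which gave 4 groups of 6 mice. Young mice were C57BL/6N at 6 months and old mice C57BL/6J at 24 months, as labelled, so the 2 differences cannot be told apart here. The paper names only C57BL/6, and the ages in its text differ from the labels and among themselves. Nnt, a gene with a known deletion in C57BL/6J, had 1.97 ± 0.42 CPM (counts relative to the TMM-scaled library size, mean ± SD over 6 mice) in young ND against 1.52 ± 0.43 in old ND, and the difference did not pass (adjusted p = 0.551, edgeR). HFD supplied 60% of energy as fat for 9 weeks. The labels name a grain-based chow as the normal diet (ND) and the paper a low-fat diet. Under the labels the diets would differ in more than fat. No drug is named in the labels of these 24 mice. Libraries came in 2 batches with 3 mice of a group in each, except old ND with 2 in batch 1 and 4 in batch 2. Mice are the replicates, and counts in every pair of mice of 1 group differed by more than sampling noise.

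Total counts per mouse ran from 9200332 to 22185069, and every old HFD library was smaller than any other. The 10 hepatocyte markers summed to between 75132 and 183669 CPM per mouse, and 0 of them were at 0 in any group. Markers of other liver cells were also counted, at 1.68 to 81.0 CPM summed over 9 Kupffer cell markers in young ND and at 49.5 to 1307 CPM in old ND. The library of old ND replicate 4 held the lowest hepatocyte sum of all 24 (75132 CPM) and the highest Kupffer cell (1307 CPM), endothelial (863 CPM) and stellate cell (475 CPM) sums. Comparisons of members with old ND are therefore also given without it. In RNA from many cells, fewer hepatocytes and less RNA per hepatocyte cannot be told apart.

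All 7 members lie on chromosome 5 of GRCm38. Cyp3a13 (ENSMUSG00000029727, minus strand) stands alone at chr5:137892932-137921619, where the annotation also places a processed pseudogene, Gm15502. The other 6 lie 7.42 Mb away within a cluster of 768 kb and 9 Cyp3a genes, chr5:145345279-146113287. There Cyp3a11 (ENSMUSG00000056035, minus strand) spans chr5:145854426-145879964 and Cyp3a25 (ENSMUSG00000029630, minus strand) spans chr5:145977194-146009618. Cyp3a59 (ENSMUSG00000061292, plus strand) follows at chr5:146079257-146113287. Near-identical copies can share reads. Of the 50-base stretches in its transcripts, 100% were unique to Cyp3a13, 93.3% to Cyp3a11, 73.2% to Cyp3a25 and 70.0% to Cyp3a59, and 25.2% of those of Cyp3a25 also occurred in Cyp3a59. Of 100-base stretches, 93.2% were unique to Cyp3a25 and 92.6% to Cyp3a59, and 6.79% of those of Cyp3a25 also occurred in Cyp3a59. Of 50-base stretches 1.39%, and of 100-base stretches 9.18%, were unique to Cyp3a41a, which shares 93.7% and 88.4% with Cyp3a41b, so these copies could hardly be told apart by any counting of unique reads.

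The sequences before the transcription start are shown for the 3 tested cluster members, which were lower on HFD in at least 1 age group, and for Cyp3a13, which was not. They are from RefSeq (GRCm38.p6), 5′ to 3′ on the gene's strand, and each printed stretch stops where the GENCODE gene begins. All 7 members matched a RefSeq promoter. Capitals mark the half-sites AGGTCA and AGTTCA and the HNF4-type letters CAAAGTCCA, searched on both strands in the 250 bases before the RefSeq start. The positions are chr5:145879965-145880104 for Cyp3a11, chr5:146009619-146009868 for Cyp3a25, chr5:146079008-146079256 for Cyp3a59 and chr5:137921620-137921869 for Cyp3a13.
Cyp3a11: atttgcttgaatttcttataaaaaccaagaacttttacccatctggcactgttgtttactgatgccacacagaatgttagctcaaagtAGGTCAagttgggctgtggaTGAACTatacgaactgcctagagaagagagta
Cyp3a25: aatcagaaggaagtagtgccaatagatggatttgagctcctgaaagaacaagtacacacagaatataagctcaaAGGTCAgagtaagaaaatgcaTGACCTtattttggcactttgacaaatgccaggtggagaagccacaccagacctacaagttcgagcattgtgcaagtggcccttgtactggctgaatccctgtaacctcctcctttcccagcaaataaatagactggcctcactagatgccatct
Cyp3a59: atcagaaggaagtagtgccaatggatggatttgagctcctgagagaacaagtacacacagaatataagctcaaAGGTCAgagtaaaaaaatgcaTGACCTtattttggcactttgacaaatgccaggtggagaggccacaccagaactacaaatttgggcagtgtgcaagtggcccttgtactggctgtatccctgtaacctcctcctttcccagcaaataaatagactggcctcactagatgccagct
Cyp3a13: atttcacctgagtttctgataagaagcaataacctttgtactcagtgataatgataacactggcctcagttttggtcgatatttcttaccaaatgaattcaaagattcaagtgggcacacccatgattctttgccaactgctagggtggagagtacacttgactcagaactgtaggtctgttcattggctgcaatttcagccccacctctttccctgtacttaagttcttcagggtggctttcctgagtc

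Over the 250 bases, Cyp3a25 and Cyp3a59 were 94.8% identical and each held AGGTCA in both orientations. Cyp3a11 and Cyp3a25 were 55.6% identical. Cyp3a11 held AGGTCA 1 time, AGTTCA 1 time and CAAAGTCCA 1 time, the last in bases that GENCODE places inside the first exon and that are not printed. None of these 3 motifs was found in the Cyp3a13 window. Of 27025 RefSeq promoters, 13.8% held AGGTCA, 11.9% AGTTCA and 0.381% CAAAGTCCA. The STAT-type TTCNNNGAA, held by 7.18% of promoters, was in 0 of the members' windows. A match of letters is not evidence of binding, and a missing match says only that these letters are absent there.

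Cyp3a11 was the most abundant member on normal diet. Per kilobase of exons, its mean level in young ND was 870 CPM per kb, against 317 for Cyp3a25, 60.2 for Cyp3a13 and 13.5 for Cyp3a59, and the ranges of neighbours in this order did not overlap. It held rank 2 of the 41 tested P450 genes of families 1 to 3 and rank 63 of all 13571 tested genes with a length. In young HFD its mean was 141 CPM per kb and it held rank 15 of the P450 genes, below Cyp3a25 with 228 CPM per kb and rank 10. The order of these 2 genes on HFD depends on the length used. The exons of Cyp3a11 add up to 5093 bases over all its transcripts and to 2344 in the principal one. With the principal transcripts, Cyp3a11 had 307 CPM per kb in young HFD and Cyp3a25 238, with overlapping ranges.

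Cyp3a11 fell on HFD in young hepatocytes by more than any other member. Its level ran from 3962 to 5453 CPM in young ND (median 4196) and from 478 to 941 CPM in young HFD (median 729). All 6 young HFD mice lay below all 6 young ND mice, as they did for 3.06% of the 13583 genes tested. The log2 fold change was -2.62 ± 0.23 (standard error from the fit, SE, with adjusted p = 2.66e-07, edgeR's quasi-likelihood test), which is 6.13-fold lower, and it was -2.68 in batch 1 and -2.53 in batch 2. This was the second smallest p of all genes.

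The other cluster members had smaller changes in young mice. Cyp3a59 ran from 18.4 to 31.7 CPM in young ND (median 28.8) and from 9.37 to 19.7 CPM in young HFD (median 18.2), and the groups overlapped. Its log2 fold change was -0.82 ± 0.23 (SE, adjusted p = 0.0455, edgeR), -0.39 in batch 1 and -1.18 in batch 2. That call was lost without the batch term (adjusted p = 0.124) and in 16 of the 24 fits that left out 1 mouse, with adjusted p up to 0.105. Over all other settings the adjusted p ran from 3.6e-05 to 0.438 and the log2 value was as small as -0.24, with limma on log2(FPKM + 1). The 16 mice were young ND replicates 1, 3, 4, 5 and 6, all 6 young HFD mice, old ND replicates 1 and 2, and old HFD replicates 1, 3 and 5.

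Cyp3a25, a member of the adult liver of both sexes, ran from 552 to 708 CPM in young ND (median 683) and from 440 to 515 CPM in young HFD (median 474). The groups did not overlap, but the difference missed the threshold, with a log2 fold change of -0.47 ± 0.14 (SE, adjusted p = 0.0557, edgeR). It passed without old ND replicate 4 (adjusted p = 0.0204) or old HFD replicate 2 (adjusted p = 0.0373), with DESeq2 (adjusted p = 0.0144) and with only the 2 groups compared (adjusted p = 0.00303), while the other settings gave up to 0.601.

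Cyp3a13, which is also expressed in the intestine, ran from 151 to 197 CPM in young ND (median 182) and from 160 to 229 CPM in young HFD (median 171). Its groups overlapped, with a log2 fold change of 0.05 (95% interval -0.20 to 0.29, adjusted p = 0.875, edgeR). The interval of Cyp3a11, -3.10 to -2.14, lay below those of Cyp3a25 (-0.76 to -0.19) and Cyp3a59 (-1.29 to -0.35). In all, 2 of the 4 tested members passed in young mice, both lower, where 3.5% of all genes passed in either direction, 1.59% as lower and 1.91% as higher.

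**Figure D1:**
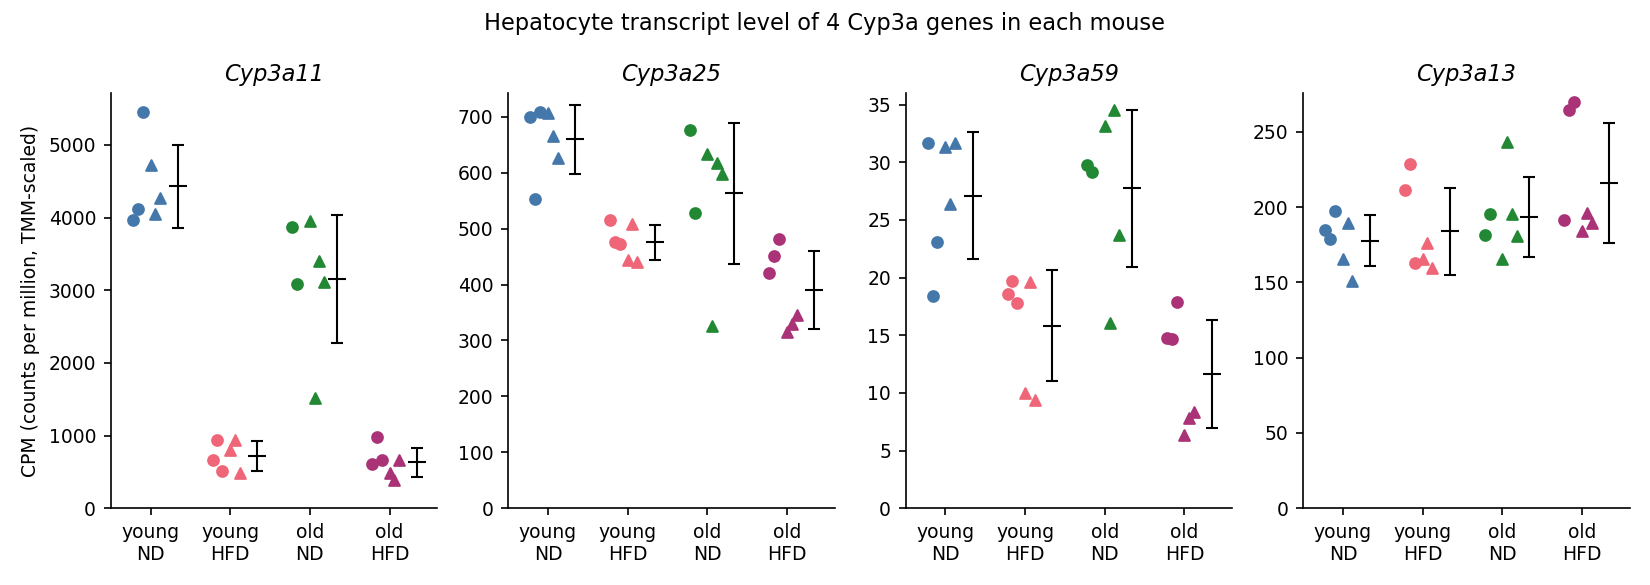
Level of each tested member in every mouse, in CPM on a linear axis from 0, by group. Circles are batch 1, triangles batch 2, and the bar beside each group is the mean ± SD (n = 6). The Cyp3a11 points of both HFD groups stay at 974 CPM or less while young ND starts at 3962 CPM, the lowest old ND point of Cyp3a11 and Cyp3a25 is replicate 4, and the Cyp3a13 groups overlap.

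The same diet comparison in old mice also gave a decrease of Cyp3a11. Cyp3a11 ran from 1522 to 3953 CPM in old ND (median 3257) and from 388 to 974 CPM in old HFD (median 638), with no overlap, which 0.788% of genes showed in that direction. The log2 fold change was -2.36 ± 0.23 (SE, adjusted p = 4.1e-06, edgeR), 5.15-fold lower, -2.26 in batch 1 and -2.54 in batch 2. No gene had a smaller p in this comparison. Without old ND replicate 4 it was -2.47.

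Cyp3a59 ran from 16.1 to 34.5 CPM in old ND (median 29.4) and from 6.32 to 17.9 CPM in old HFD (median 11.5), and old ND replicate 4 alone made the groups overlap. The log2 fold change was -1.36 ± 0.24 (SE, adjusted p = 0.00371, edgeR), -0.95 in batch 1 and -1.83 in batch 2. The call was lost in batch 1 alone (adjusted p = 0.173), and the value was -0.43 with limma on log2(FPKM + 1). Without old ND replicate 4 it was -1.43.

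Cyp3a25 ran from 326 to 676 CPM in old ND (median 607) and from 316 to 482 CPM in old HFD (median 383). Its log2 fold change was -0.56 ± 0.14 (SE, adjusted p = 0.0307, edgeR), and -0.64 without old ND replicate 4 (adjusted p = 0.00349). The call was lost in 8 fits that left out 1 mouse, namely old ND replicates 1, 2, 3, 5 and 6 and old HFD replicates 4, 5 and 6, with adjusted p up to 0.0872, and without the batch term (adjusted p = 0.0558). Other settings gave adjusted p from 0.00286 to 0.323.

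Cyp3a13 ran from 165 to 243 CPM in old ND (median 189) and from 184 to 270 CPM in old HFD (median 194), with a log2 fold change of 0.11 (95% interval -0.13 to 0.36, adjusted p = 0.614, edgeR), and 0.22 without old ND replicate 4 (adjusted p = 0.232). Thus 3 of 4 tested members passed in old mice, all lower, where 3.01% of all genes passed, 1.64% as lower and 1.37% as higher. Hepatocyte markers passed in 0 of 10 cases in either diet comparison, and 1 was lower in old mice without old ND replicate 4. In young mice 1 of 9 Kupffer cell, 1 of 8 endothelial and 2 of 8 stellate cell markers passed, all higher (3, 6 and 2 without old ND replicate 4), and the Kupffer cell sum ran from 1.68 to 81.0 CPM in ND and from 14.4 to 207 CPM in HFD. In old mice 0 of these passed, with 49.5 to 1307 CPM in ND and 65.5 to 666 CPM in HFD. Their part in the Cyp3a differences was not tested.

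Whether the diet response differed with age was asked by the interaction term. For Cyp3a11 the old diet effect minus the young one was 0.25 on the log2 scale (95% interval -0.39 to 0.89, adjusted p = 0.833, edgeR). For Cyp3a59 it was -0.54 (95% interval -1.20 to 0.13, adjusted p = 0.61, edgeR) and for Cyp3a25 -0.09 (-0.49 to 0.32). For Cyp3a13 it was 0.07 (-0.28 to 0.41). Without old ND replicate 4 the interaction was 0.12 for Cyp3a11, -0.64 for Cyp3a59, -0.20 for Cyp3a25 and 0.15 for Cyp3a13. No member passed with edgeR or DESeq2, and 0 had an unadjusted p under 0.05. Over all genes edgeR called 0 interactions, with 1247 at an unadjusted p under 0.05, and DESeq2 called 4. With intervals of this width, equal responses in both ages are not shown.

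Between ages on normal diet, 0 of the 4 tested members passed with edgeR or DESeq2, where 8.5% of all genes passed with edgeR, 1.24% as lower and 7.26% as higher, and 1 member, Cyp3a11, had an unadjusted p under 0.05, as did 3020 of the 13583 genes. All 6 old ND mice had less Cyp3a11 than any young ND mouse, a separation that 1.72% of genes showed, though the highest old ND mouse (3953 CPM) lay just under the lowest young ND mouse (3962 CPM). The log2 fold change was -0.46 ± 0.22 (SE, adjusted p = 0.215, edgeR), -0.36 in batch 1 and -0.54 in batch 2, and -0.32 without old ND replicate 4. Cyp3a25 had -0.21 (adjusted p = 0.408), Cyp3a59 had 0.07 (adjusted p = 0.898) and Cyp3a13 had 0.16 (adjusted p = 0.465) in the same edgeR test. Without old ND replicate 4 these were -0.09 for Cyp3a25, 0.18 for Cyp3a59 and 0.08 for Cyp3a13. Here all 9 Kupffer cell markers, 5 of 8 endothelial markers and 7 of 8 stellate cell markers passed as higher in old ND (8, 0 and 3 without old ND replicate 4), and the summed stellate cell markers ran from 6.29 to 80.7 CPM in young ND and from 79.0 to 475 CPM in old ND. Their part in the Cyp3a levels was not tested, and 0 of 10 hepatocyte markers passed.

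Between ages on HFD, 0 of 4 members passed with edgeR or DESeq2, where 2.24% of all genes did with edgeR, 0.42% as lower and 1.82% as higher, and 1, Cyp3a25, had an unadjusted p under 0.05, as did 2848 of the 13583 genes. The log2 fold changes were -0.21 for Cyp3a11 (adjusted p = 0.607), -0.29 for Cyp3a25 (adjusted p = 0.224), -0.47 for Cyp3a59 (adjusted p = 0.246) and 0.23 for Cyp3a13 (adjusted p = 0.268) in edgeR's test. That of Cyp3a11 was 0.06 in batch 1 and -0.55 in batch 2. The groups overlapped for all 4, where 0.25% of genes were separated as lower.

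Old HFD set against young ND joins age and diet in 1 contrast and shares its mice with the comparisons above. Cyp3a11 differed by a log2 of -2.83 ± 0.23 (SE, adjusted p = 1.3e-07, edgeR), the smallest p of all genes. Cyp3a59 differed by -1.29 ± 0.23 (SE, adjusted p = 0.000624, edgeR), -0.66 in batch 1 and -1.98 in batch 2. Cyp3a25 differed by -0.77 ± 0.14 (SE, adjusted p = 0.000622, edgeR). All 3 separated the groups completely, which 4.27% of genes did as lower. In batch 1 alone the adjusted p was 0.071 for Cyp3a59 and 0.053 for Cyp3a25. These 3 of 4 members passed, all lower, against a background of 30.2% of genes in either direction, 12.9% lower and 17.3% higher. Cyp3a13 had a log2 fold change of 0.27 ± 0.12 (SE, adjusted p = 0.0778, edgeR) and did not pass. It passed as higher without old ND replicate 4 (adjusted p = 0.0277) or old HFD replicate 1 (adjusted p = 0.0493), with RLE scaling (adjusted p = 0.0425), with DESeq2 (adjusted p = 0.0231) and on the FPKM values (adjusted p = 0.0482), while other settings gave up to 0.448. In this contrast 8 of 9 Kupffer cell markers and all 8 endothelial markers passed as higher, and of 10 hepatocyte markers 1 passed as higher and 3 as lower.

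**Figure D2:**
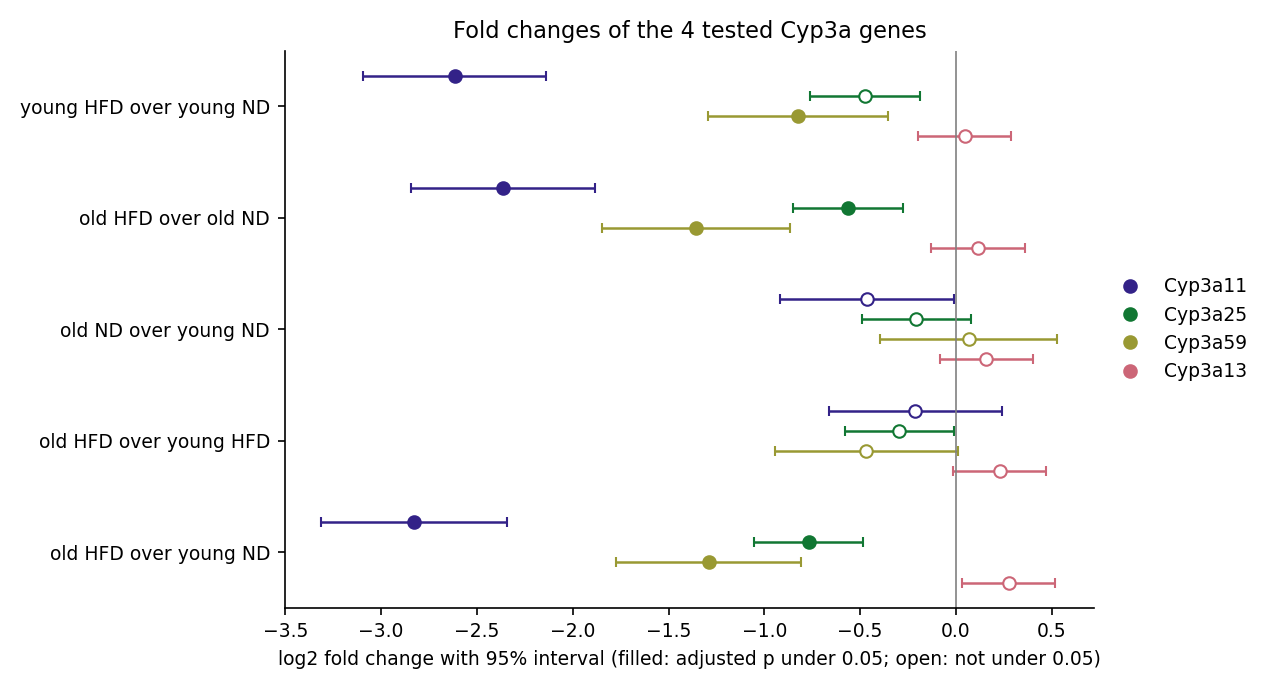
Log2 fold change (horizontal axis) of the 4 tested members in the 5 comparisons, with 95% intervals from the edgeR fit of 24 mice. Filled points had an adjusted p under 0.05. Cyp3a11 lies between -2.36 and -2.83 in every comparison of an HFD with an ND group and between -0.46 and -0.21 in the comparisons of age within a diet.

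Summed over the 7 members, the family reached 5294 ± 604 CPM (SD, n = 6) in young ND against 1396 ± 238 for young HFD, a 3.79-fold lower mean. For old ND it was 3941 ± 983 CPM against 1249 ± 290 for old HFD, a 3.15-fold lower mean. All 6 HFD mice of each age lay below all 6 ND mice of that age, as for 3.06% of single genes in young and 0.788% in old mice. The mean of old ND was 1.34-fold below that of young ND with no overlap, as 1.72% of single genes showed. There the highest old ND sum (4785 CPM) lay just under the lowest young ND sum (4866 CPM). Without old ND replicate 4 the log2 ratio of means was -1.79 for old HFD over old ND, against -1.66 with it, and -0.30 for old ND over young ND, against -0.43 with it. The means of the HFD groups differed 1.12-fold, and only 2 of 6 old HFD mice lay below every young HFD mouse. The family made up 0.520% ± 0.046 of all counts in young ND and 0.124% ± 0.029 in old HFD.

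The makeup of the family also differed between the diets. Shares and ratios here are of CPM not divided by gene length, so their size depends on that choice. Per kilobase of exons, the young HFD mean was 141 for Cyp3a11 and 228 for Cyp3a25, and 307 and 238 with the principal transcripts. Cyp3a11 held 83.6% ± 1.59 of the summed CPM in young ND, 79.3% ± 3.66 in old ND, 50.8% ± 6.55 in young HFD and 49.8% ± 5.57 in old HFD. The ratio of Cyp3a11 to Cyp3a25 ran from 5.67 to 7.71 in young ND and from 4.66 to 6.23 in old ND. It ran from 1.08 to 1.98 in young HFD and from 1.18 to 2.16 in old HFD, so neither HFD group reached an ND group. Cyp3a13 made up 3.38% ± 0.43 in young ND and 17.6% ± 2.40 in old HFD, while its own CPM did not pass the test. The lowest share of Cyp3a11 in an ND mouse, 72.2% in old ND replicate 4, lay above the highest in an HFD mouse, 57.1%.

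**Figure D3:**
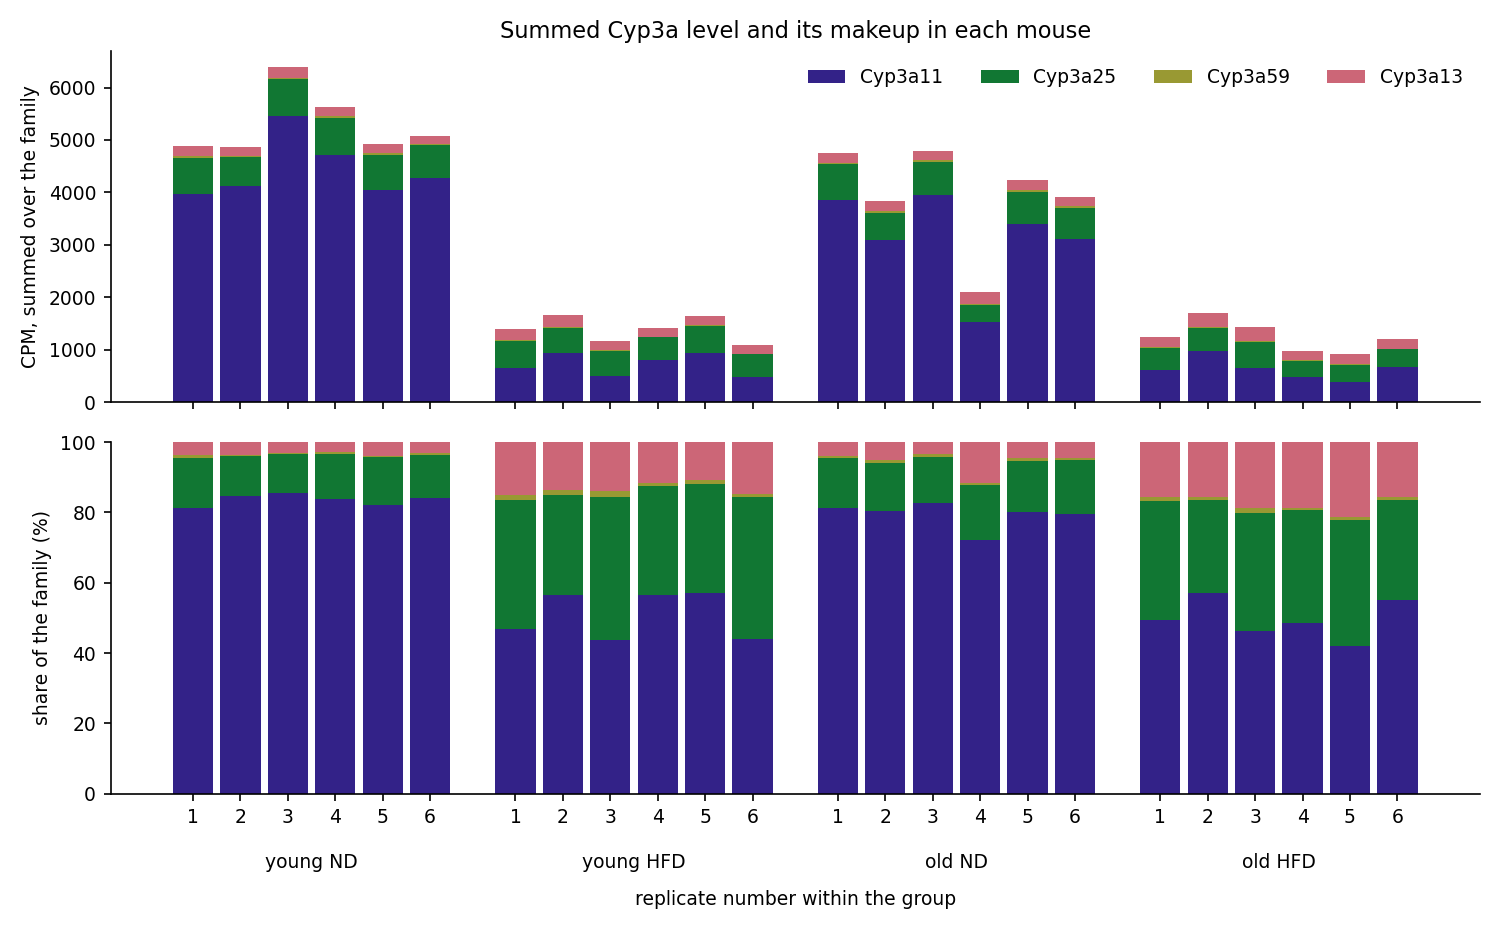
Stacked bars of the tested members in each mouse, as CPM (top, axis from 0) and as a share of the summed family CPM in percent (bottom). Mice are named by replicate number within each group. The sum is 4866 CPM or more in every young ND mouse and 1705 CPM or less in every HFD mouse, and the Cyp3a11 share is 72.2% or more in every ND mouse and 57.1% or less in every HFD mouse.

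The 3 untested members had 50 counts in all 24 mice together, 0.00432% of the family. Cyp3a16 had 21 counts in 9 mice, 10 of them in old HFD replicate 2. Cyp3a44 had 21 counts in 11 mice, 6 of them in old HFD replicate 3. Cyp3a41a had 8 counts in 5 mice and 0 in young ND. A limit of 3 counts corresponds to between 0.142 and 0.322 CPM per library, and group means of all 3 were at or below it, so no difference between groups was detectable at this depth. These values cover counting error only. The other Cyp3a genes of the cluster had 23 counts (Cyp3a57), 8 counts (the pseudogene Cyp3a63-ps) and 0 counts (Cyp3a41b) in all. Since Cyp3a41a and Cyp3a41b share most of their sequence and the treatment of shared reads is not given, their counts do not show how low their expression was.

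Genes outside the family that are known to be female-biased in liver included some that rose on HFD. Of 14 listed, 8 were tested, and 6 rose on HFD in young mice and 1 in old mice. The shares of all genes were 1.91% and 1.37%. Between ages on ND, 4 of the 8 were higher in old mice (median log2 fold change 2.18), where 7.26% of all genes were. The count was also 4 without old ND replicate 4. Cyp2b9, a P450 of the female liver, rose from 0.303 to 71.5 CPM in young mice (log2 fold change 7.67 ± 0.81 SE, adjusted p = 5.75e-06, edgeR). Between old groups it rose from 8.37 to 68.1 CPM (log2 fold change 2.54 ± 0.60 SE, adjusted p = 0.0244, edgeR). Of 15 male-biased genes, 7 fell on HFD in young mice and 2 in old mice, beside 1.59% and 1.64% of all genes. Between ages on ND, 6 of the 15 were lower in old mice, where 1.24% of all genes were, and 1 without old ND replicate 4. Gstp1, a glutathione transferase of the male liver, fell from 993 to 261 CPM in young mice (adjusted p = 0.000224, edgeR). The median log2 fold change of the female-biased list was 3.21 and that of the male-biased list -1.35 in young mice, beside 0.01 over all genes. In old mice these medians were 1.19 and 0.06, and 1.16 and -0.07 without old ND replicate 4, so the sign for the male-biased list rests on that mouse. The counts of both lists on HFD were the same without it. Of 9 genes of growth hormone signalling, 0 passed in either diet comparison.

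The transcripts of the receptors that act on Cyp3a genes did not pass in the diet comparisons. Nr1i2 (PXR) had 67.0 CPM in young ND and 60.5 in young HFD (log2 fold change -0.15, adjusted p = 0.609, edgeR), and 54.4 in old ND and 49.3 in old HFD (-0.14, adjusted p = 0.618). Nr1i3 (CAR) had 64.5 CPM in young ND and 101 in young HFD (0.63, adjusted p = 0.137), and 55.4 in old ND and 59.1 in old HFD (0.23, adjusted p = 0.639). Of 20 listed regulators, 19 were tested and 0 passed in either diet comparison with edgeR, with medians of -0.09 in young and -0.05 in old mice on the log2 scale. In old HFD over young ND, 4 were lower and 1 higher, where 30.2% of all genes passed, 12.9% as lower and 17.3% as higher, so this count is no result about the list. Among the lower were Hnf4a, a receptor-type factor of hepatocyte identity, with 377.9 against 625.2 CPM (adjusted p = 0.00534, edgeR), and Foxa1, a factor that opens liver chromatin, with 11.7 against 23.2 CPM (adjusted p = 0.00883, edgeR). Nr1i2 was lower there too, with 49.3 against 67.0 CPM (adjusted p = 0.0213, edgeR).

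Some known targets of PXR and CAR outside the family fell on HFD. Of 18 listed and tested, HFD lowered 5 in young and 6 in old mice, and 0 rose. Among all genes, 1.59% passed as lower in young and 1.64% in old mice. The median log2 fold change of the list was -0.19 in young and -0.30 in old mice, beside 0.01 and -0.01 over all genes. Cyp2c55, a P450 that oxidizes arachidonic acid, fell from 11.4 to 2.13 CPM in young mice (log2 fold change -2.61 ± 0.39 SE, adjusted p = 0.000609, edgeR) and from 12.4 to 1.96 CPM in old mice (-2.90, adjusted p = 0.000475). Cyp2c29, an abundant liver P450, fell from 1834 to 799 CPM in young mice (-1.20, adjusted p = 0.00415) and from 1423 to 606 CPM in old mice (-1.29, adjusted p = 0.00392). Ces2a, a carboxylesterase that hydrolyses prodrugs, fell from 413 to 154 CPM in young mice (-1.42, adjusted p = 9.23e-05) and from 302 to 163 CPM in old mice (-0.88, adjusted p = 0.00971). The other members of this list, 13 in young and 12 in old mice, did not pass.

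**Figure D4:**
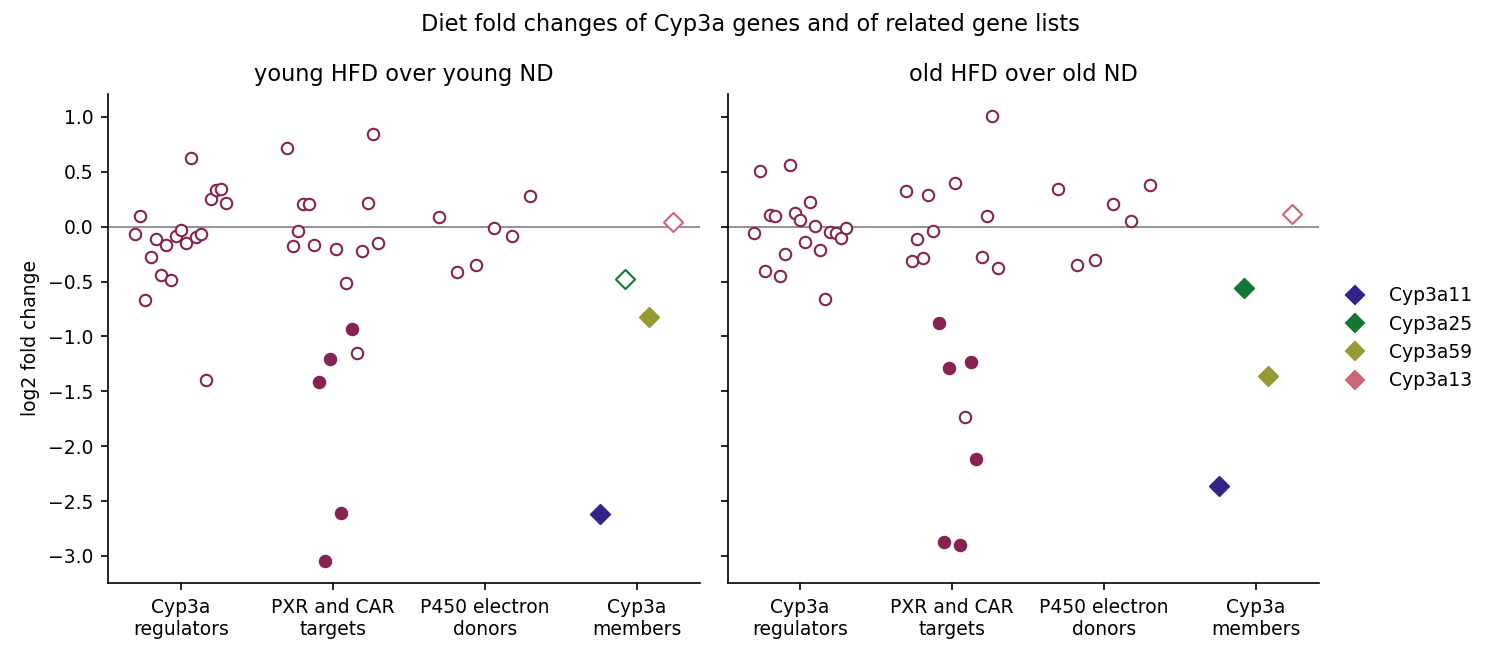
Log2 fold change on HFD of each tested gene of 3 lists and of the 4 tested Cyp3a members, in young (left) and old mice (right). Circles are list genes spread sideways by name, diamonds are members, and filled symbols had an adjusted p under 0.05. Filled circles occur among the PXR and CAR targets, 5 on the left and 6 on the right, and not among the 19 regulators or 6 electron donors.

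The partners of P450 catalysis did not pass in the diet comparisons. Of 6 electron donor genes and of 12 genes of heme synthesis and breakdown, 0 passed in young or old mice with edgeR. Por, the oxidoreductase that feeds all microsomal P450 enzymes, had 183 CPM in young ND and 221 in young HFD (adjusted p = 0.632), and 203 in old ND and 262 in old HFD (adjusted p = 0.467). Alas1, the first enzyme of heme synthesis, varied from 71.0 to 532 CPM within young ND and from 53.2 to 535 CPM within young HFD. In old HFD over young ND, Cyb5b, a cytochrome b5 of the outer mitochondrial membrane, was lower with 474 against 813 CPM (adjusted p = 0.000716, edgeR), and so was Cyb5r3, a cytochrome b5 reductase, with 377 against 527 CPM (adjusted p = 0.0278, edgeR). These were the 2 of 6 donors that passed there. Of the 12 heme genes 1 was lower, Fech, which inserts the iron (116 against 173 CPM, adjusted p = 0.00543, edgeR), and 1 higher, Hmox1, which degrades heme (13.99 against 5.71 CPM, adjusted p = 0.0249, edgeR). In that contrast 30.2% of all genes passed, so the counts of neither list are a result about these genes.

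Within groups, 2 of the 3 pairs of tested cluster members covaried across mice. After removal of each group's mean in each batch, log2 CPM of Cyp3a25 and Cyp3a59 had a Pearson r of 0.74 over 24 mice (permutation p = 0.00090, adjusted p = 0.0054 over 6 pairs) and a Spearman rho of 0.63 (permutation p = 0.00293, adjusted p = 0.0176). Without the 2 mice farthest from the median, old ND replicates 3 and 4, r was 0.60. Cyp3a11 and Cyp3a25 had r = 0.69 (permutation p = 0.00856, adjusted p = 0.0257) and rho = 0.58 (permutation p = 0.0107, adjusted p = 0.0321), and r = 0.49 without young HFD replicate 6 and old ND replicate 4. Cyp3a11 and Cyp3a59 had r = 0.59 (permutation p = 0.0369, adjusted p = 0.0737) and rho = 0.44 (permutation p = 0.0871, adjusted p = 0.174), which fell to r = 0.34 without the same 2 mice. Cyp3a13 had r between -0.30 and -0.03 with the other members, with adjusted permutation p from 0.568 to 0.918. Its rho values ran from 0.03 to 0.13 (adjusted permutation p = 0.908). Without the 2 farthest mice of each pair its r ran from -0.04 to 0.28. Cyp3a25 and Cyp3a59 share transcript sequence, so part of their r could be read sharing. All pairs share libraries, whose summed hepatocyte markers ran from 75132 to 183669 CPM. The part of either in the r values was not tested.

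By likeness across all 24 mice, with batch means but not group means removed, the genes outside the family closest to Cyp3a11 were Csad (r = 0.95), an enzyme of taurine synthesis, Zfp385a (r = 0.94) and Cyp2c55 (r = 0.92). Closest to Cyp3a25 were Me1 (r = 0.91), which yields NADPH, Gstm1 (r = 0.90), a glutathione transferase, and Aox1 (r = 0.90), an aldehyde oxidase. Closest to Cyp3a13 were Lbp (r = 0.85), which binds lipopolysaccharide, Fgl1 (r = 0.80), a secreted hepatocyte protein, and Pggt1b (r = 0.76). These values describe the 24 mice and include the differences between groups. Csad fell from 650 to 114 CPM on HFD in young mice (log2 fold change -2.50 ± 0.21 SE, adjusted p = 1.2e-07, edgeR) and from 417 to 127 CPM in old mice (-1.74, adjusted p = 5.64e-05). Lbp, the closest to Cyp3a13, had 66.6 CPM in young ND and 77.8 on HFD, and for old mice 101 on ND and 104 on HFD.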

How the data were processed

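The authors deposited raw counts per gene, made by STAR 2.7.3a alignment to mm10 and HTSeq 0.11.2 counting with a Gencode annotation, after FastQC 0.11.8. How strand and shared reads were treated is not given in the sources used here. The authors also deposited FPKM values adjusted between batches with ComBat, and in 8316 to 9485 genes per mouse these imply division by a length near the whole gene span (median ratio 0.952 to the span and 5.06 to the exons). Levels of different genes were therefore ranked as CPM per kilobase of GENCODE M21 exons, while shares and ratios within the family used CPM without length. FPKM served only as an alternative.

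Counts of 24 mice were fitted with edgeR 4.0.16 (R 4.3.3), using TMM scaling, filterByExpr, terms for group and batch, quasi-likelihood F tests and Benjamini-Hochberg adjustment over 13583 genes at 0.05, with a prior count of 2 for log2 CPM. The script was tested on simulated data. Depth ran from 9200332 to 22185069 counts per mouse. No molecular identifiers are named, so limits from counts cover counting error only. Pairs of members were compared with 100000 two-sided permutations of mice. Alternatives were RLE scaling, no count filter, no batch term, a replicate block, DESeq2 1.42.0, the compared groups alone, limma 3.58.1 on log2(FPKM + 1) and log2(FPKM + 0.1), each batch alone, and each mouse left out. Python 3.11.15, pandas 2.3.3, scipy 1.17.1, Biopython 1.88 and matplotlib 3.10.9 were used for tables, motifs and figures.

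The members and gene lists were chosen with earlier results of these data known. Genes named are the members, in every list the 3 genes of lowest adjusted p for old HFD over young ND, Nr1i2, Nr1i3, Por, Alas1, Ptprc, Clec4f, Nnt, and the 3 genes most like Cyp3a11, Cyp3a25 and Cyp3a13. Some of these are not printed. Gene positions are from GENCODE M21 (GRCm38) and promoters from RefSeq. Columns without a matching sample numbered 0.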

Additional observations from a re-analysis of the deposited data

Results flagged for a closer look

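Values of old ND replicate 4 stood far below the other 5 mice of that group. Its log2 CPM was 10.57 for Cyp3a11, 8.35 for Cyp3a25 and 11.04 for the summed family. The gap to the next mouse took 0.741, 0.661 and 0.732 of the group's whole range, above Dixon's critical value of 0.625 for 6 mice. The 3 values are not independent of each other, and about 1 in 20 groups would pass this limit by chance, of 20 groups checked. The same library had the lowest summed hepatocyte markers (75132 CPM) and the highest summed Kupffer cell markers (1307 CPM) of all 24, and the part of either in the low Cyp3a values was not tested. Its Cyp3a13 level, 243 CPM, was the highest of old ND.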

How the results depend on the processing

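The fall of Cyp3a11 on HFD passed in every setting tried, with log2 values from -2.68 to -2.53 in young and from -2.54 to -2.26 in old mice, and in all 24 fits that left out 1 mouse. In young mice the number of members called, 2 in the main setting, was 1 without the batch term, in batch 1 alone, in batch 2 alone and with limma on either FPKM scale, was 3 with DESeq2 and with only the 2 groups compared, and ran from 1 to 3 when 1 mouse was left out. In batch 1 alone it was 1 for old HFD over old ND and 1 for old HFD over young ND, where fewer mice enter. It was otherwise 2 to 3 in the former and 3 to 4 in the latter, with 4 under RLE scaling, DESeq2 and both FPKM scales. Left out 1 at a time, mice gave 2 to 3 and 3 to 4 members in those comparisons. A sign turned only for values that had not passed themselves. In batch 1 alone Cyp3a11 had 0.058 and the summed family 0.050 in old HFD over young HFD on the log2 scale. In batch 2 alone Cyp3a13 had -0.027 in old HFD over old ND, Cyp3a59 had -0.15 in old ND over young ND, and the interaction was -0.0056 for Cyp3a11 and -0.041 for Cyp3a13. With 1 mouse left out, Cyp3a13 ran from -0.0072 to 0.096 in young HFD over young ND and from -0.0082 to 0.15 for the interaction, and Cyp3a59 from -0.047 to 0.18 in old ND over young ND. With only group means removed, the pair r values of Cyp3a13 were 0.12 with Cyp3a11, 0.026 with Cyp3a25 and 0.27 with Cyp3a59. The cause of these shifts was not tested.

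The replicate block in place of batch turned Cyp3a59 in old ND over young ND to -0.046 and changed no member's call. The groups share replicate numbers 1 to 6. Same-numbered mice did not on average deviate together (mean r -0.002, lowest -0.44, against a mean of -1.9e-05 for other numbers). Of 24 mice, 8 were closest to a mouse of their own number. The number expected by chance is not given, so this check does not settle whether the numbers pair the mice. With the block, all genes called numbered 283 against 475 in young HFD over young ND and 131 against 304 in old HFD over young HFD. Over the other settings the count of all genes ran from 9 to 2302 in young HFD over young ND, from 15 to 1123 in old HFD over old ND, from 2 to 2053 in old ND over young ND, from 0 to 1235 in old HFD over young HFD, from 617 to 4675 in old HFD over young ND and from 0 to 587 for the interaction, so percentages of genes called depend on the setting. With 1 mouse left out it ran from 146 (young ND replicate 2) to 998 (old HFD replicate 2) in young HFD over young ND, from 84 (old ND replicate 2) to 823 (old HFD replicate 3) in old HFD over old ND, and from 40 (young HFD replicate 4) to 813 (old HFD replicate 3) in old HFD over young HFD. In old ND over young ND, with 1155, it was as low as 586 (old ND replicate 4). RLE scaling moved the median of all genes by less than 0.05 on the log2 scale. Counts at or near the limit left Cyp3a16 and Cyp3a44 without a comparison, and Cyp3a41a also shares most of its sequence with Cyp3a41b.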

Other observations

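Outside the Cyp3a family, the 37 tested P450 genes of families 1 and 2 (of 51 in the table) moved in both directions. On HFD, 4 passed as higher and 3 as lower in young mice, 3 as higher and 3 as lower in old mice, and their median log2 fold changes were 0.10 and 0.03. Among all genes, 1.91% passed as higher and 1.59% as lower in young mice, and 1.37% and 1.64% in old mice. With age on ND, 3 of the 37 were higher and 3 lower, where 7.26% of all genes passed as higher and 1.24% as lower. The higher count is near that share, so it is no result about the list. Without old ND replicate 4 the counts of the list were 3 and 0.

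Of 16 genes of the acute phase and inflammatory signalling, 8 were higher with age on ND (median log2 fold change 1.46), but 3 when old ND replicate 4 was left out (median 0.46). Among all genes, 7.26% passed as higher with age on ND in the fit of 24 mice. On HFD 0 of the 16 passed in young mice and 2 were lower in old mice, where 1.64% of all genes were. Without old ND replicate 4, 3 of the 16 were higher in young mice and, in old mice, 1 was higher and 0 lower. Saa3, an acute phase protein, had 3.27 CPM in young ND and 11.7 in old ND (log2 fold change 1.81 ± 0.45 SE, adjusted p = 0.0146, edgeR). Of 10 lymphocyte and leukocyte markers 6 were tested, and 4 were higher with age on ND, 3 without old ND replicate 4. Of 6 cholangiocyte markers 2 were tested and 0 passed there. The counts without that library were chosen after seeing the data.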
